A study of Homo sapiens with 53 samples.

Results

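Narrow CTCF sites without MBD3 are the CTCF peaks of DMSO-treated HEK293T cells that were under 500 bp wide and overlapped no MBD3 peak of the same cells. Overlapping or touching CTCF intervals were merged first, and peaks on chromosomes 1 to 22 and X were kept. The rule gave 51659 sites, which is 52.6% of the 98272 CTCF peaks on those chromosomes, and another 1315 CTCF peaks lay elsewhere. The remaining CTCF peaks were 18405 narrow peaks with MBD3, 10108 wide peaks without MBD3 and 18100 wide peaks with MBD3. The narrow sites without MBD3 made up 73.7% of all narrow CTCF peaks and 83.6% of all CTCF peaks without MBD3.

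CTCF is a zinc-finger protein that binds a long DNA motif, stops the loop-extruding cohesin ring and so marks loop anchors and insulators. MBD3 is a subunit of NuRD, a complex that joins nucleosome remodelling to histone deacetylation, and it is known mainly from active promoters and enhancers. TET1, TET2 and TET3 are dioxygenases that oxidise 5-methylcytosine, and methylation within some CTCF motifs is known to hinder CTCF binding.

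The study applied chromatin immunoprecipitation with paired-end sequencing (ChIP-seq) to HEK293T, a human embryonic kidney cell line. Cells were kept for 72 h with BPK-25 at 30 µM or with DMSO, the solvent. CTCF and MBD3 were precipitated from the parental cells with antibodies against the proteins themselves. TET1, TET2 and TET3 were precipitated through a Flag tag, each from a derived line of its own, so a TET list and the CTCF list come from different cells, and the number of clones behind each line is not given in the sources used here. The labels give 3 precipitates per target and treatment, except for TET2 under DMSO with 2, and inputs of each line and treatment. The deposited values are 10 peak lists, 1 per target and treatment, taken as called on pooled replicates. No value below therefore has a spread between replicates, and no difference between BPK-25 and DMSO was tested.

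The lists differed in length and in genome background, which stands here for depth. For CTCF there were 245419 peaks under BPK-25 and 99587 under DMSO, and for MBD3 there were 243213 and 82358. The BPK-25 lists of TET1, TET2 and TET3 had 447, 509 and 13360 peaks, against 5951, 1233 and 14129 in their DMSO lists. The genome background, which is the least local background found in a list, was 2.58 fragments for CTCF under BPK-25 and 3.68 under DMSO, a ratio of 70.0%. For MBD3 it was 2.57 fragments under BPK-25 and 3.21 under DMSO. In the TET lists it lay between 1.05 and 1.75 under BPK-25 and between 1.25 and 1.85 under DMSO. The lowest pileup called at the genome background was 8 fragments in the BPK-25 CTCF list and 11 in the DMSO CTCF list. The absence of a peak therefore means that no peak was called at that depth, not that the protein was absent.

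Under DMSO the narrow sites without MBD3 were compact, mostly single-summit peaks of modest strength. Fold enrichment is the authors' ratio of summit pileup to local background. Its median was 8.71 at these sites, with quartiles of 5.22 and 19.0 and a range of 1.89 to 239. The median was 4.85 at narrow peaks with MBD3, 46.3 at wide peaks without MBD3 and 63.3 at wide peaks with MBD3. In fold enrichment the narrow sites without MBD3 thus stood above the narrow peaks with MBD3 and below both wide classes. A fold enrichment of 10 or more was reached by 23049 of the sites, or 44.6%, against 53.1% of all CTCF peaks. One of 100 or more was reached by 274 of the 51659 sites, against 7301 of the 98272 CTCF peaks.

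The median site was 264 bp wide, with quartiles of 206 and 350 bp, and held 52 fragments at its summit. A single summit was listed for 51178 sites, or 99.1%, against 93.7% of narrow peaks with MBD3, 67.8% of wide peaks without MBD3 and 49.1% of wide peaks with MBD3. The summit lay a median of 10 bp from the middle of the peak. Local background was low, at a median of 1.26 times the genome background, against 1.61, 1.57 and 1.92 times in those other classes in the same order. It was within 5% of the genome background at 17290 sites, or 33.5%, against 23.3% of all CTCF peaks. Widths, strengths and the lack of MBD3 in DMSO were used to choose the sites, or come from the same list, and are given as a description.

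The 500 bp limit fell within a continuous range of widths. The 1386 sites of 475 to 499 bp had a median fold enrichment of 38.6, and the 1280 peaks without MBD3 of 500 to 524 bp had one of 37.3. Among the sites of 499 bp the highest -log10 q was on chromosome 10, 33297593 to 33298091, with a fold enrichment of 80.7. Among the peaks of 500 bp, which were left out, the highest -log10 q was on chromosome 8, 20233699 to 20234198, with a fold enrichment of 89.9. Peaks on either side of the limit were alike in these values.

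Few of the narrow sites without MBD3 were found in the CTCF list of BPK-25-treated cells, although that list is the longer of the CTCF lists. Of the 51659 sites, 8593 overlapped a BPK-25 CTCF peak, or 16.6% (exact 95% interval 16.3 to 17.0), while the share over all CTCF peaks on the same chromosomes was 39.5%. The share was 71.7% at narrow peaks with MBD3, 21.5% at wide peaks without MBD3 and 82.2% at wide peaks with MBD3. Over all strengths together, both classes without MBD3 thus had low shares and both classes with MBD3 had high ones. The share by summit was lower still. A BPK-25 CTCF summit within 100 bp was listed at 5589 sites, or 10.8%, and at 27.6% of all CTCF peaks.

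The BPK-25 MBD3 list covered the narrow sites without MBD3 to nearly the same extent. There 8827 sites overlapped a BPK-25 MBD3 peak, or 17.1% (16.8 to 17.4), against 40.5% of all CTCF peaks. All of these sites lacked an MBD3 peak under DMSO, by the rule. The 2 BPK-25 lists shared most of their sites: 6535 sites, or 12.7%, overlapped both, 2058 the CTCF list alone and 2292 the MBD3 list alone. Among the sites in the BPK-25 CTCF list, 76.1% were also in the BPK-25 MBD3 list, and 74.0% in the reverse. Over all CTCF peaks these shares were higher, at 89.4% and 87.4%. The remaining 40774 sites, or 78.9%, were in neither. Over all CTCF peaks 35.4% were in both lists and 55.4% in neither. The shares in the CTCF list alone and the MBD3 list alone were 3.98% and 4.44% at the sites. They were near those over all CTCF peaks, at 4.17% and 5.11%. Sites in both had a median DMSO fold enrichment of 5.38, those in the CTCF list alone 7.26, those in the MBD3 list alone 7.63 and those in neither 9.61.

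**Figure D1:**
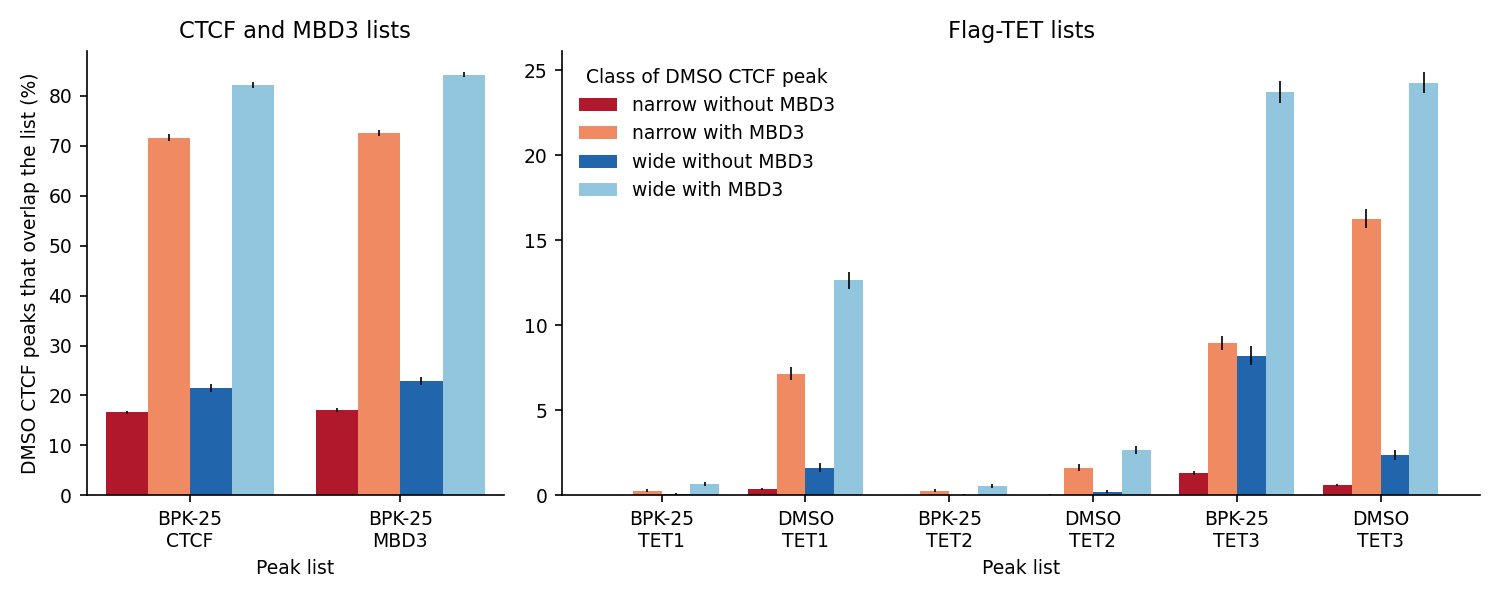
Share of DMSO CTCF peaks (percent, vertical axis) that overlapped a peak of each other list, for the 4 classes of width and MBD3, with the narrow sites without MBD3 first and exact 95% intervals for counting error. Narrow sites without MBD3 stand at 16.6% for BPK-25 CTCF and 17.1% for BPK-25 MBD3, and narrow peaks with MBD3 at 71.7% and 72.6%.

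The weaker a site was under DMSO, the more often it was found in the BPK-25 CTCF list. Ranked by DMSO -log10 q and cut into 10 equal groups, the sites had shares of 41.1% in the weakest decile, then 20.5%, 17.3%, 16.0%, 15.2%, 14.0%, 13.5%, 11.3% and 9.41%, and 8.02% in the strongest. DMSO fold enrichment had a median of 3.25 among the weakest sites and 55.1 among the strongest, and the median pileups were 18 and 354 fragments. The BPK-25 MBD3 list gave shares of 41.1% in the weakest and 9.60% in the strongest decile. In both lists the share thus fell at each step towards stronger sites, most between the first 2 deciles.

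Narrow peaks with MBD3 had a higher share in every one of these strength ranges. Theirs was 84.7% in the range of the weakest decile and 43.3% in that of the strongest, against 41.1% and 8.02% at the sites without MBD3. The classes thus differed within these ranges of DMSO strength as well. The ranges did not make them equal. In the strongest range the median fold enrichment was 70.9 at narrow peaks with MBD3 and 55.1 at the sites. Local background was higher at narrow peaks with MBD3 in every range. Its medians were 1.57 against 1.24 times the genome background in the weakest range and 1.74 against 1.44 in the strongest. The part of these differences was not tested. The wide peaks without MBD3 that fell in the strongest range, 6480 in number, had a share of 19.9%. In the weakest range there were 34 of them, with a share of 76.5% against 41.1% at the sites. In every range their share was above that of the sites and below that of narrow peaks with MBD3. Within each decile the wider sites had the higher share. It was 50.4% among the wider and 32.1% among the narrower sites of the weakest decile, and 9.27% against 6.77% in the strongest. The part of width in the overlap shares was not tested.

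The fall with strength remained when the overlap was read more strictly, by settings chosen after seeing the data. With BPK-25 peaks of -log10 q of at least 5 30.4% of the weakest and 3.47% of the strongest decile overlapped. With at least 50% of the site covered it was 35.7% and 3.33%. With a BPK-25 summit within 50 bp it was 18.1% in the weakest, 4.41% in the ninth and 4.88% in the strongest decile, so that this count did not fall further at the top.

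**Figure D2:**
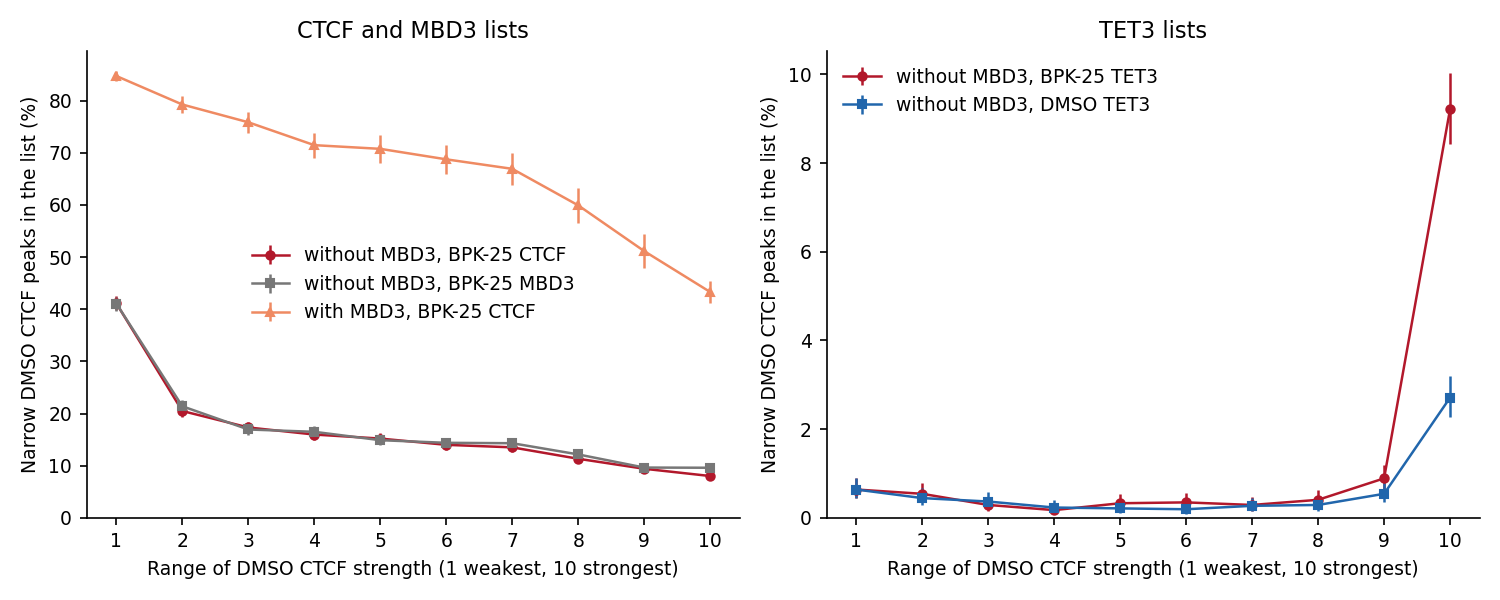
Share of narrow CTCF peaks (percent, vertical axes) in the BPK-25 CTCF and MBD3 lists on the left and in the TET3 lists on the right, by range of DMSO CTCF strength (horizontal axes, 1 weakest to 10 strongest), with exact 95% intervals for counting error. The BPK-25 CTCF share of sites without MBD3 is 41.1% in range 1 and 8.02% in range 10, and their TET3 share in range 10 is 9.22% under BPK-25 and 2.71% under DMSO.

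At sites present in both CTCF lists the BPK-25 pileups lay in a narrow band whatever the DMSO pileup. Over the 5589 sites with summits within 100 bp, the pileup reached a median of 7.76 times the genome background in BPK-25 cells and 9.78 times in DMSO cells. In the weakest decile, with 1461 such sites, the medians were 8.92 under BPK-25 and 4.89 under DMSO, and 10.1% of the sites were lower under BPK-25. In the strongest decile, with 323 sites, they were 6.98 and 107, and every site was lower under BPK-25. The median ratio there was 0.0615 (quartiles 0.0399 and 0.0902). With BPK-25 peaks of -log10 q of at least 5 alone, the order over all shared sites turned, at 9.70 times under BPK-25 and 8.96 under DMSO. These sites were selected by being called under BPK-25, which sets a lower limit on their BPK-25 pileup. The turn at the weak end thus rests on selected sites, and it was not tested. The deciles were ranked on DMSO -log10 q. High DMSO pileups in the strongest decile and low ones in the weakest therefore follow from the ranking. The shares of sites lower under BPK-25 depend in part on this ranking.

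In fragments, the BPK-25 median was 23 at the weakest shared sites, against 18 under DMSO. At the strongest it was 18, against 393 under DMSO. A BPK-25 fold enrichment of 10 or more was found at 29 of the 5589 sites. By the same summit rule it was found at 493 of 10358 narrow peaks with MBD3 and 3 of 844 wide peaks without MBD3. BPK-25 CTCF peaks over the 8593 sites had a median fold enrichment of 3.94 (quartiles 3.20 and 5.07), against 3.71 for all BPK-25 CTCF peaks on these chromosomes. The BPK-25 peaks over the weakest decile were broad, at a median of 436 bp against 202 bp for the DMSO sites beneath them. Over the strongest decile they were narrow, at 202.5 bp against 435.5 bp.

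**Figure D3:**
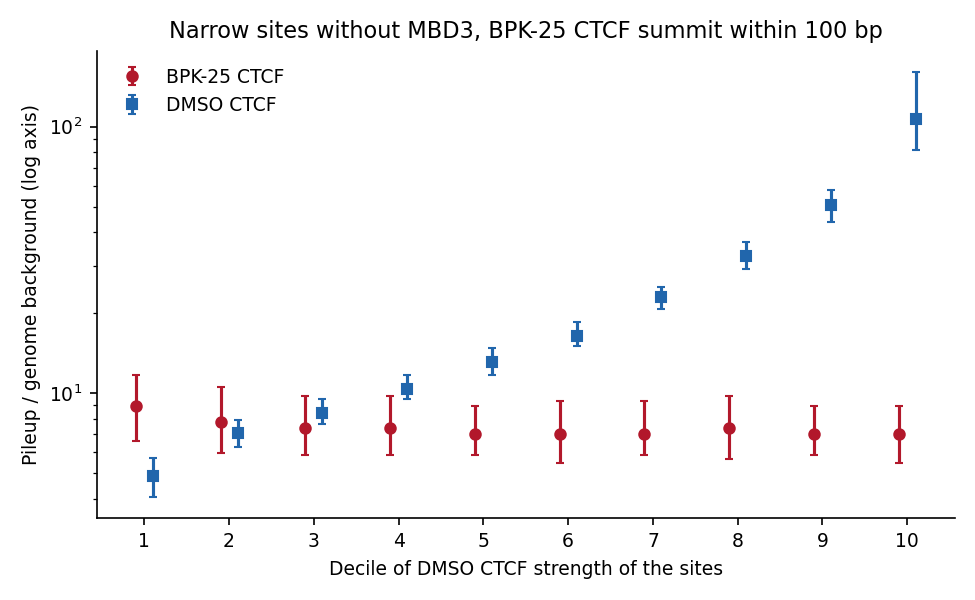
Pileup over genome background (log axis) at narrow sites without MBD3 that had a BPK-25 CTCF summit within 100 bp, by decile of DMSO strength, with BPK-25 and DMSO medians and quartiles. The BPK-25 medians are 8.92 in decile 1 and 6.98 in decile 10, and the DMSO medians 4.89 and 107.

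Most strong sites had no BPK-25 CTCF peak at all. Of the 5165 sites in the strongest decile, 4751 overlapped none, and their median DMSO pileup was 352 fragments (quartiles 285 and 463). Scaled by the 70.0% ratio of genome backgrounds, 352 fragments correspond to 246 at the BPK-25 depth. The lowest pileup called in the BPK-25 CTCF list was 8 fragments where local background was 1 to 1.25 times the genome background, and 17 where it was 3 to 5 times. In the weakest decile the 3042 sites with no BPK-25 peak had a median of 18 fragments, or 12.6 at the BPK-25 depth. The part of depth in the missing calls was not tested.

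The 10 strongest sites show this range one by one. The highest -log10 q was on chromosome 1, 521382 to 521818, in a 437 bp peak whose pileup was 37 fragments in the BPK-25 CTCF list and 1695 in the DMSO list. Its fold enrichment was 3.74 under BPK-25 and 129 under DMSO, with the 2 summits 7 bp apart. The same site had a BPK-25 MBD3 peak of fold enrichment 4.19 and a BPK-25 TET3 peak of 10.1, whose summit lay 2 bp from that of CTCF. Of the 10 sites, 3 were in the BPK-25 CTCF list, 4 in the BPK-25 MBD3 list, 7 in the BPK-25 TET3 list and 1 in the DMSO TET3 list.

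The second strongest, on chromosome 1 at 20301214 to 20301702, had 1615 fragments under DMSO and no BPK-25 CTCF peak within 1000 bp. It carried TET3 under both treatments, with a fold enrichment of 6.84 under BPK-25 and 4.15 under DMSO. The highest fold enrichment of all the sites, 239, was on chromosome 8 at 11801096 to 11801555, again with no BPK-25 CTCF overlap and with a BPK-25 TET3 peak of 7.56. The site on chromosome 5 at 110493763 to 110494236, with a DMSO fold enrichment of 184, was in none of the other lists. A strong DMSO CTCF peak was thus found with and without BPK-25 peaks of CTCF, MBD3 and TET3.

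Among sites in the BPK-25 CTCF list, the fourth strongest lay on chromosome 21 at 39727900 to 39728382. Its pileup was 20 fragments under BPK-25 and 1150 under DMSO, and its fold enrichment 5.87 and 155. The BPK-25 MBD3 list had 20 fragments there too, with a summit 1 bp from that of DMSO CTCF. Among sites with a BPK-25 MBD3 peak and no BPK-25 CTCF peak, the strongest was on chromosome 4 at 186518707 to 186519194. Its MBD3 fold enrichment was 3.44 with 18 fragments under BPK-25, against a CTCF pileup of 1385 fragments under DMSO.

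TET peaks were rare at the narrow sites without MBD3, and TET3 under BPK-25 was the most frequent. TET3 peaks of BPK-25-treated cells overlapped 678 sites, or 1.31% (1.22 to 1.41), against 7.57% of all CTCF peaks. TET3 peaks of DMSO-treated cells overlapped 305, or 0.590% (0.526 to 0.660), against 8.07% of all CTCF peaks. At these sites the BPK-25 share was above the DMSO share. With a TET3 summit within 100 bp the counts were 584 sites (1.13%) under BPK-25 and 212 (0.410%) under DMSO, against 5.90% and 3.80% of all CTCF peaks. Over all CTCF peaks the order of the treatments thus depended on the count, by overlap or by summit. Wide peaks without MBD3 had the same order, with 8.20% under BPK-25 and 2.37% under DMSO. Narrow peaks with MBD3 had the opposite order, with 8.94% under BPK-25 and 16.3% under DMSO. Wide peaks with MBD3 had 23.7% and 24.3% by overlap, and 18.3% and 9.84% by summit. At the sites themselves BPK-25 was higher in each setting run, but the shares moved. With at least 50% of the site covered they were 0.451% under BPK-25 and 0.323% under DMSO, and with TET3 peaks of -log10 q of at least 5 they were 0.656% and 0.0755%, so that the ratio ran from 1.40 to 8.69.

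TET1 and TET2 hardly touched the sites. TET1 was found at 7 sites under BPK-25, or 0.0136% against 0.189% of all CTCF peaks, and at 192 under DMSO, or 0.372% against 4.03%. TET2 was found at 11 sites under BPK-25, or 0.0213% against 0.168%, and at 18 under DMSO, or 0.0348% against 0.832%. For TET1 the order of the treatments was thus opposite to that of TET3, and the TET1 lists differed in length in the same direction, with 447 peaks under BPK-25 and 5951 under DMSO. In all, 682 sites met any TET list under BPK-25 and 459 under DMSO, and 39964 sites, or 77.4%, met none of the 8 lists not used to choose them. These counts were not made over all CTCF peaks, so they do not show whether the sites differ from other CTCF peaks.

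The TET3 peaks of BPK-25-treated cells were concentrated at the strongest sites. In the strongest decile 476 sites, or 9.22% (8.44 to 10.0), overlapped a BPK-25 TET3 peak and 140, or 2.71% (2.28 to 3.19), a DMSO TET3 peak. In the weakest decile the counts were 33 for each treatment, and no decile below the ninth exceeded 0.639% in the BPK-25 list. Among the 100 strongest sites the share was 48.0% under BPK-25 and 10.0% under DMSO, and among the 1000 strongest it was 26.7% and 5.80%. The excess under BPK-25 was thus located at the top of the strength order. Narrow peaks with MBD3 in the range of the strongest decile likewise had more TET3 under BPK-25, at 23.6% against 9.57% under DMSO. DMSO TET1 peaks were likewise most frequent in the strongest decile, at 115 of their 192 sites.

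The BPK-25 TET3 summits lay close to the CTCF summits. Over the 678 sites the median distance was 20.5 bp, and 527 sites, or 77.7%, had the summits within 50 bp. Over all CTCF peaks the median was much the same, at 21 bp with 69.3% within 50 bp, and at wide peaks without MBD3 it was 13 bp with 89.4%. For DMSO TET3 the sites had a median of 56 bp and 141 of 305, or 46.2%, within 50 bp, against 111 bp and 30.9% over all CTCF peaks. In the strongest decile the medians were 15 bp under BPK-25 and 29.5 bp under DMSO. A BPK-25 TET3 summit lay within 100 bp at 461 sites of the strongest decile. Their median TET3 pileup was 14 fragments, or 8.51 times the genome background, against 572 fragments of DMSO CTCF. Their median TET3 fold enrichment was 5.35, against 4.91 over the whole BPK-25 TET3 list. The BPK-25 CTCF summits lay a median of 64 bp from those of DMSO CTCF over all 8593 overlapping sites. In the strongest decile that median was 33 bp, with 60.9% within 50 bp.

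**Figure D4:**
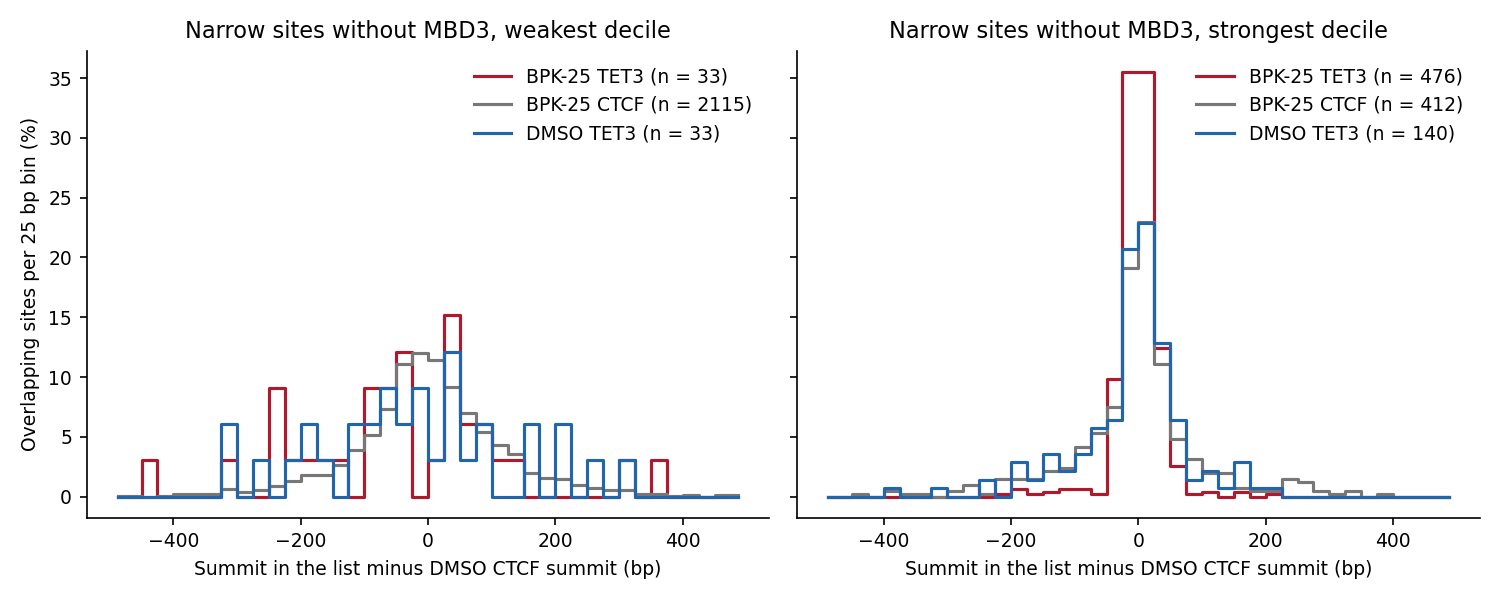
Signed distance of the BPK-25 TET3, BPK-25 CTCF or DMSO TET3 summit from the DMSO CTCF summit (bp, horizontal axis), as the share of overlapping narrow sites without MBD3 per 25 bp bin (percent, vertical axis), in the weakest decile on the left and the strongest on the right. In the strongest decile the summits gather near 0, with median distances of 15 bp for BPK-25 TET3 and 29.5 bp for DMSO TET3, while the TET3 lines of the weakest decile rest on 33 sites each.

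Strong sites inside and outside the BPK-25 CTCF list were also compared for TET3. In the strongest decile a BPK-25 TET3 peak was found at 7.73% (5.35 to 10.7) of the 414 sites in the BPK-25 CTCF list and at 9.35% (8.53 to 10.2) of the 4751 sites outside it. The intervals overlap, and the difference was not tested. The 586 sites with TET3 under BPK-25 alone had a median DMSO CTCF fold enrichment of 58.5, and 434 of them lay in the strongest decile. The 213 sites with TET3 under DMSO alone had a median of 28.8, and 92 sites had TET3 under both. This split was not counted over all CTCF peaks, so it does not show whether the sites differ from other CTCF peaks. The strongest of the sites with TET3 under DMSO alone was on chromosome 18 at 23411951 to 23412421, with 13 fragments of TET3 and a fold enrichment of 4.30.

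A single site overlapped peaks of all 3 TET proteins under DMSO, on chromosome 1 at 145299554 to 145300045. Its DMSO fold enrichments were 4.14 for TET1, 4.64 for TET2 and 4.83 for TET3, and its BPK-25 TET3 fold enrichment was 4.77. Local background there was 7.67 times the genome background, against the median of 1.26, and what part this had in the calls was not tested.

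Sites nearer to an MBD3 peak were found under BPK-25 more often. The sites lay a median of 14249 bp from the nearest DMSO MBD3 peak, with quartiles of 3917 and 44510 bp. The BPK-25 CTCF share was 38.0% at the 4843 sites under 1 kb away, 26.3% at 1 to 5 kb, 15.7% at 5 to 20 kb, 8.98% at 20 to 100 kb, 5.68% at 100 to 500 kb and 6.62% at the 589 sites farther away. The shares thus fell with distance up to the last classes, whose intervals of 5.09 to 6.31% and 4.75 to 8.94% overlap. Among the weakest sites 63.5% were found under 1 kb and 18.4% at 100 to 500 kb, against 11.6% and 3.78% among the strongest. The distance to the nearest other CTCF peak gave a like order, with 31.8% under 1 kb and 8.15% at 20 to 100 kb. The weight of each distance was not tested.

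**Figure D5:**
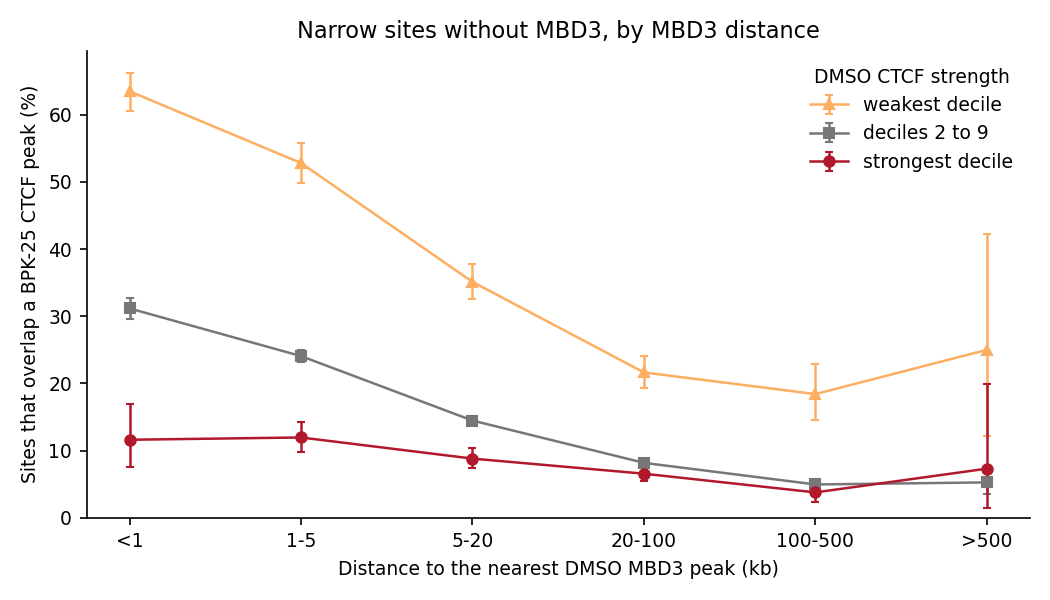
Share of narrow sites without MBD3 that overlapped a BPK-25 CTCF peak (percent, vertical axis) by distance to the nearest DMSO MBD3 peak (kb, horizontal axis), for the weakest decile, deciles 2 to 9 and the strongest decile of DMSO strength, with exact 95% intervals for counting error. The share under 1 kb is 63.5% in the weakest decile, 31.2% in deciles 2 to 9 and 11.6% in the strongest, and at 100 to 500 kb it is 18.4%, 4.97% and 3.78%.

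Local background moved with the BPK-25 CTCF share. From the fifth of the sites with the lowest DMSO local background to that with the highest, the shares were 7.59%, 13.5%, 16.9%, 21.2% and 24.1%. Its part in the other results was not tested. Local background was 20 or more times the genome background at 2 sites, both in the BPK-25 TET3 list and neither in the BPK-25 CTCF list. By chromosome the BPK-25 CTCF share was lowest on 13, at 9.40%, and highest on 19, at 37.7%, with a median of 16.1%. Among the stronger 5 deciles it was lowest on 13, at 6.35%, and highest on 22, at 27.7%. Chromosome 19 was also the chromosome where the sites made up the smallest part of all CTCF peaks, 34.6%, and chromosome 13 the one where they made up the largest, 63.5%. For BPK-25 TET3 the order differed, with the lowest share on 22, at 0.498%, and the highest on 6, at 2.40%.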

How the data were processed

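ChIP-seq peak lists of CTCF and MBD3 in HEK293T cells, and of Flag-tagged TET1 to TET3 in derived lines were used as deposited. The submitters' processing notes name MACS2 2.1.2, Bowtie2 2.3.4, bedtools 2.25.0, SAMtools 1.9, FastQC 0.11.7 and build hg19. How each tool was run is not given in the sources used here. Every deposited summit has a fold enrichment (the authors' ratio of pileup over local background). It also has a p-value and a q-value, each deposited as its -log10, and an offset from the interval start. The list of TET2 under DMSO is named for 3 replicates, while 2 samples are labelled. Lists were taken as pooled from their names.

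Coordinates are hg19 and 1-based. Overlapping or touching intervals were merged, keeping the summit of highest -log10 q. Overlap means at least 1 bp. Pileup and local background were solved from the fold enrichment, taken as pileup plus 1 over background plus 1, and the Poisson p; 100% of pileups under 200 were whole to within 0.02 in each list. The method was tested on simulated data. Total reads were not used, so the genome background stands for depth. The 95% intervals of shares are exact (Clopper-Pearson) and hold counting error alone. Sites were ranked by DMSO -log10 q into deciles, and other classes were placed in the same ranges.

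Sites, classes and lists were chosen with earlier results of these data known. Regions were named from the 10 strongest sites, the 5 strongest in each class of overlap with the BPK-25 CTCF, BPK-25 MBD3 and TET lists, and the 3 nearest the 500 bp limit on each side. Alternatives concerned the q of the other list, the overlap, the width limit, the MBD3 distance, the site strength, high local background, merging, summit distance and scale. Without hg19 sequence or annotation, motifs, sequences and genes were not analysed here. Python 3.11.15, NumPy 2.4.6, pandas 2.3.3, SciPy 1.17.1 and Matplotlib 3.10.9 were used.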

Additional observations from a re-analysis of the deposited data

How the results depend on the processing

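The 33 values that moved by more than counting error are given here, and the other 31 did not. The share of sites in the BPK-25 CTCF list, 16.6%, was 9.79% with BPK-25 peaks of -log10 q of at least 5, 12.7% with at least 50% of the site covered, 17.0% for sites under 400 bp, 14.4% with no MBD3 within 1000 bp and 13.1% for sites of -log10 q of at least 10. The BPK-25 MBD3 share, 17.1%, was 10.4%, 13.2%, 14.8% and 13.6% under the same settings other than the width limit. With a -log10 q of at least 5 the TET1 shares were 0.00194% under BPK-25 and 0.0871% under DMSO, the TET2 shares 0.00774% in each, and the TET3 shares 0.656% and 0.0755%. With 50% covered TET1 stood at 0.00194% and 0.205%, TET2 at 0.00968% and 0.0136%, and TET3 at 0.451% and 0.323%, BPK-25 before DMSO in each pair. For sites under 400 bp TET1 stood at 0.00452% and 0.179%, DMSO TET2 at 0.0136%, and TET3 at 0.542% and 0.371%. With no MBD3 within 1000 bp the DMSO TET3 share was 0.474%, and with sites of -log10 q of at least 10 the BPK-25 TET3 share was 1.48%. TET3 was higher under BPK-25 in every setting run, by 1.40 to 8.69 times.

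The median pileups at shared sites turned in order with BPK-25 peaks of -log10 q of at least 5, at 9.70 times the genome background under BPK-25 and 8.96 under DMSO. With sites of -log10 q of at least 10 the DMSO median was 16.0. Over local background the medians were 4.53 under BPK-25 and 6.45 under DMSO. The cause of these changes was not tested. No paired analysis was possible because each list pools its replicates, and for the same reason leaving out a replicate was not run. The genome background, used in place of depth, was lower under BPK-25 in each pair of lists, and its part in the calls was not tested.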
